A study of Mus musculus with 6 samples.

Results

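Epithelial-mesenchymal transition is the program by which epithelial cells loosen their junctions and take on the shape and motility of mesenchymal cells. It is set off by a small group of DNA-binding repressors that bind E-box sequences in epithelial genes, E-cadherin among them, and it is accompanied by intermediate filament and matrix proteins typical of mesenchyme. The same genes are also active in the fibroblasts and other stromal cells of a mammary tumor. The 10 genes described here are 7 transcription factors (Snai1, Snai2, Twist1, Twist2, Zeb1, Zeb2 and Foxc2) and 3 products (Vim, Fn1 and Tnc). They were chosen by name and by no threshold on their values, although earlier results of these data were known. Each was measured by a single probe set of 1 gene symbol, so they are 10 of the 19938 genes and 10 of the 35557 probe sets of the array.

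RNA of 6 mammary tumors, resected early in tumor development, was hybridised to Affymetrix Mouse Gene 1.0 ST arrays, with 1 array per tumor. Tumors 5333, 5346 and 5347 came from JAM-A-/- mice and tumors 5369, 5370 and 5393 from JAM-A+/+ mice. All 6 carried the MMTV-PyMT transgene, in which the mouse mammary tumor virus promoter drives the polyoma virus middle T oncogene in mammary epithelium. JAM-A, a junctional adhesion molecule encoded by F11r, was lacking in the whole animal of the JAM-A-/- group, stromal cells included. The labels give no ages, and they do not say whether each tumor had its own mouse. The p-values therefore measure the spread between these tumors, which may not be that between mice. Tumor 5347 was placed by its title and genotype, since its tissue label does not mention JAM-A.

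F11r was measured at 5.91, 5.55 and 6.53 in JAM-A-/- tumors and at 10.10, 10.23 and 10.47 in JAM-A+/+ tumors, in log2 units. The groups were far apart (log2 fold change -4.27, SE 0.24, limma adjusted p = 0.00667), and each of the 6 tumors fitted its label. No other probe set passed the Benjamini-Hochberg adjustment in limma, and 3871 probe sets had an unadjusted limma p under 0.05. A looser criterion is therefore used, a fold change of at least 1.3 with an unadjusted limma p under 0.05, which 8.3% of all probe sets met. A gene that met it was not significant after adjustment, F11r excepted. All 8 epithelial markers of the luminal lineage were measured, with a mean level of 11.06 to 11.56 in JAM-A-/- tumors and 10.96 to 11.35 in JAM-A+/+ tumors.

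Of the 10 transition genes, Tnc and Foxc2 met the criterion, both with higher values in JAM-A-/- tumors, and the other 8 did not. Among all genes 4.73% met it with higher values in JAM-A-/- tumors and 0.592% with lower values. After Benjamini-Hochberg adjustment 0 of the 10 genes passed in limma, and Tnc and Foxc2 alone had an unadjusted limma p under 0.05. The log2 fold change was above 0 for 9 of the 10 genes, where 71% of all genes lay above 0. Its median was 0.30 over the 10 genes and 0.09 over all genes. The median was 0.17 for the 7 transcription factors and 0.57 for the 3 products. With quantile normalization over listed probe sets they were 0.10 and 0.37, and without tumor 5369 they were 0.09 and 0.40. These medians are descriptions and were not tested against each other. Both groups were bulk tumors, in which fewer cells of a type and less RNA per cell cannot be told apart.

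**Figure D1:**
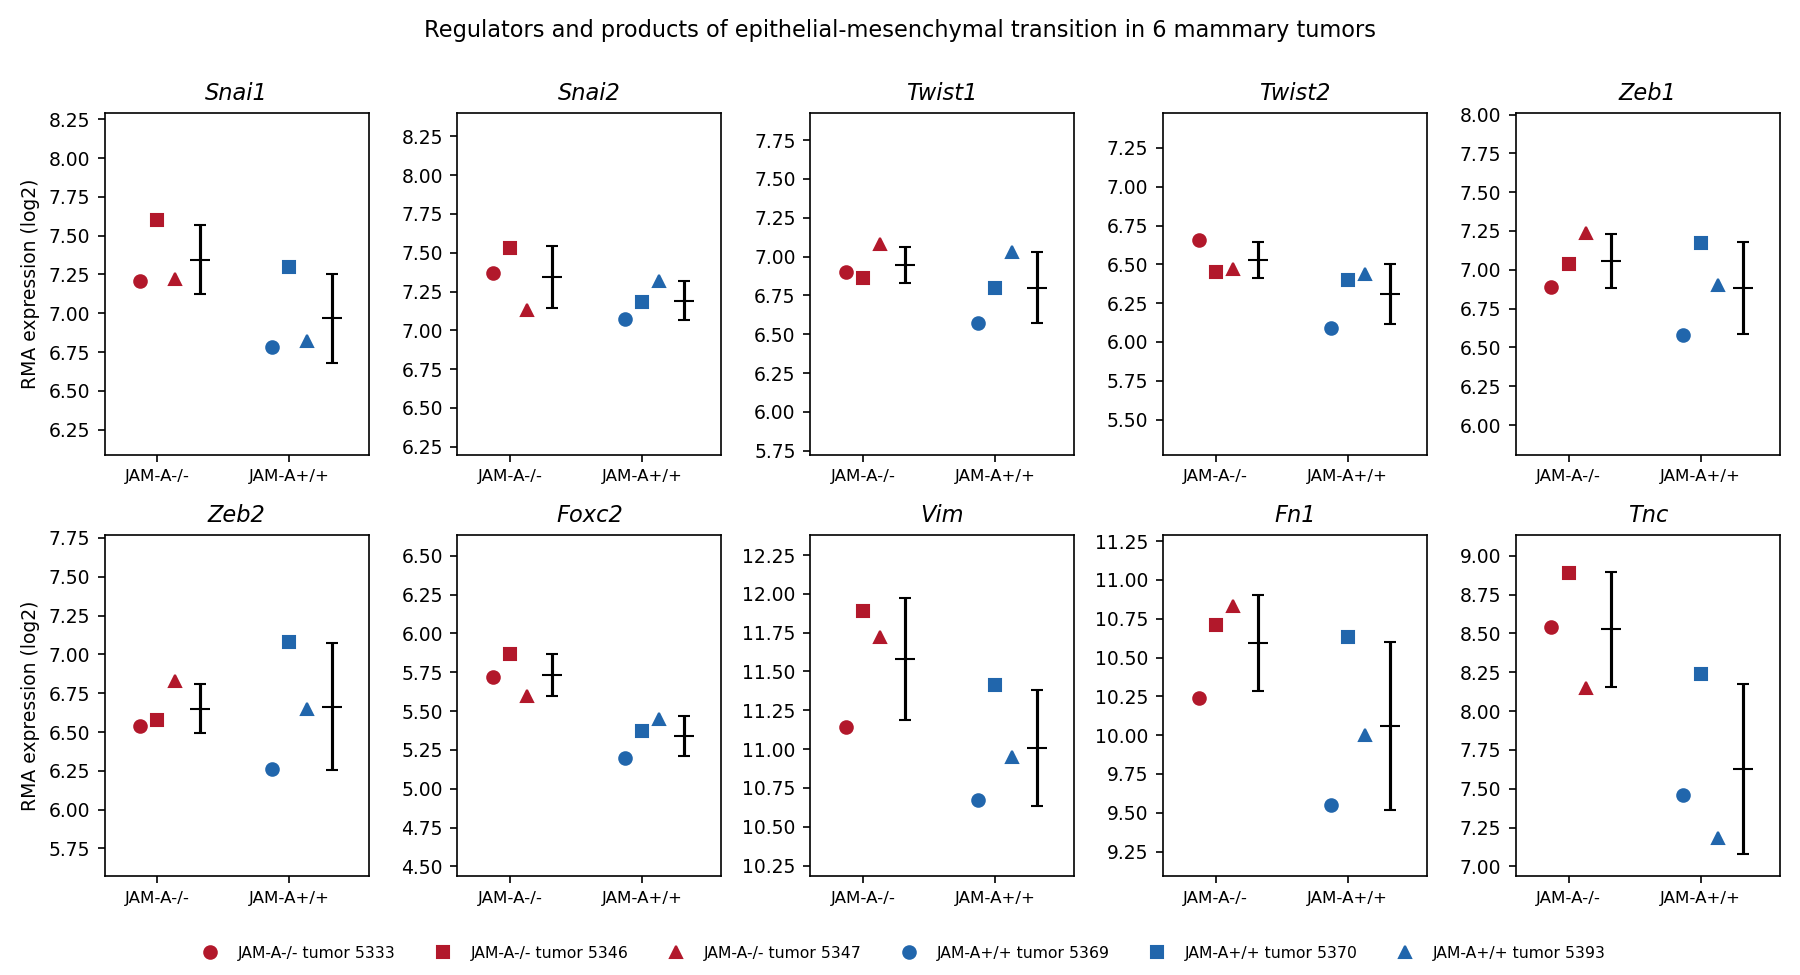
Log2 expression of the 10 transition genes in each tumor, with JAM-A-/- tumors left of JAM-A+/+ tumors and bars for the group mean ± SD (n = 3 each). Foxc2 and Twist2 show no overlap between groups, and for Zeb2 the group means lie at 6.65 in JAM-A-/- tumors and 6.66 in JAM-A+/+ tumors.

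Tenascin C, encoded by Tnc, is a matrix glycoprotein made during development, wound repair and tumor growth. Its log2 values were 8.54, 8.89 and 8.15 in JAM-A-/- tumors and 7.46, 8.24 and 7.18 in JAM-A+/+ tumors. All JAM-A-/- tumors but 5347 lay above every JAM-A+/+ tumor, and tumor 5347 lay below tumor 5370. The log2 fold change was 0.90 (SE 0.29, 95% interval 0.22 to 1.58), a 1.87-fold difference with an interval of 1.16 to 3.00. Its limma adjusted p was 0.386, and the exact two-sided permutation test gave p = 0.2. With 3 tumors a group that exact test cannot go below 0.1.

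Fibronectin, encoded by Fn1, is the main adhesive glycoprotein of the interstitial matrix. Its log2 values were 10.24, 10.71 and 10.83 in JAM-A-/- tumors and 9.55, 10.63 and 10 in JAM-A+/+ tumors. Tumor 5370 lay above tumor 5333, so the groups overlapped. The difference was 0.53 (SE 0.28, interval -0.12 to 1.18, limma adjusted p = 0.516). Under the 2 quantile scalings it was 0.32, and with median centring it was 0.59, with the criterion missed in each. Within the JAM-A+/+ group alone, tumor 5370 exceeded tumor 5369 by 1.08, which is wider than the difference between the group means.

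Vimentin, encoded by Vim, is the intermediate filament protein of mesenchymal cells. It was measured at 11.14, 11.89 and 11.72 in JAM-A-/- tumors and at 10.67, 11.41 and 10.95 in JAM-A+/+ tumors. Only tumor 5370 of the JAM-A+/+ group lay inside the JAM-A-/- range. The difference of 0.57 (SE 0.25) had a 95% interval that ended just below 0 and an adjusted p of 0.461 in limma. Vim therefore missed the criterion on its p while its fold of 1.49 passed the minimum. Under the 2 quantile scalings its difference was 0.37, and the criterion was again missed. Vim met the criterion with array weights and with median centring, at 0.63 in both. It also met it when the dimmest 40% of probe sets were left out, at 0.57.

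Foxc2 encodes a forkhead factor of vascular and mesenchymal development. Its values were 5.72, 5.87 and 5.60 in JAM-A-/- tumors and 5.20, 5.37 and 5.45 in JAM-A+/+ tumors. No JAM-A+/+ tumor reached the lowest JAM-A-/- tumor. The log2 fold change was 0.39 (SE 0.13, interval 0.09 to 0.69), or 1.31-fold, only just past the minimum of 1.3. Its adjusted p in limma was 0.386, and the exact permutation p was 0.1, the smallest the design allows. The mean over the 6 arrays lay under the level of 5.66 below which the dimmest 40% of probe sets fall, so Foxc2 is not tested when dim probe sets are left out, and the other 9 genes are.

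The zinc finger repressors Snai1 (Snail) and Snai2 (Slug) are the best known repressors of E-cadherin. Snai1 had 7.21, 7.60 and 7.22 in JAM-A-/- tumors and 6.78, 7.30 and 6.82 in JAM-A+/+ tumors. Tumors 5369 and 5393 lay below every JAM-A-/- tumor, and tumor 5370 lay within their range. The difference was 0.38 (SE 0.18, interval -0.05 to 0.80, limma adjusted p = 0.495). Snai2 had 7.37, 7.53 and 7.13 in JAM-A-/- tumors and 7.07, 7.18 and 7.32 in JAM-A+/+ tumors. For Snai2 the groups lay across each other, with a difference of 0.15 (SE 0.14, interval -0.18 to 0.48, limma adjusted p = 0.706).

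Twist1 and Twist2 encode basic helix-loop-helix factors that act in mesoderm and, in mammary tumor cells, in the transition. Twist1 was measured at 6.90, 6.86 and 7.08 in JAM-A-/- tumors and at 6.57, 6.80 and 7.03 in JAM-A+/+ tumors. Tumor 5393 lay above tumors 5333 and 5346, and the difference of 0.15 (SE 0.15, interval -0.20 to 0.49) had a limma adjusted p of 0.733. Twist2 was measured at 6.66, 6.45 and 6.47 in JAM-A-/- tumors and at 6.09, 6.40 and 6.44 in JAM-A+/+ tumors. All JAM-A-/- tumors lay above all JAM-A+/+ tumors, although tumor 5393 came within 0.01 of tumor 5346. Its difference was 0.22 (SE 0.14, interval -0.10 to 0.54, limma adjusted p = 0.581). Twist2 and Foxc2 were the 2 genes of the 10 whose groups did not overlap, where 12.4% of all genes had all JAM-A-/- tumors above all JAM-A+/+ tumors.

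Zeb1 and Zeb2 encode zinc finger and homeodomain repressors that microRNAs of the miR-200 family hold down. Zeb1 had 6.89, 7.04 and 7.24 in JAM-A-/- tumors and 6.58, 7.17 and 6.90 in JAM-A+/+ tumors, a difference of 0.17 (SE 0.18, interval -0.24 to 0.58, limma adjusted p = 0.733). Zeb2 had 6.54, 6.58 and 6.83 in JAM-A-/- tumors and 6.26, 7.08 and 6.65 in JAM-A+/+ tumors. All 3 JAM-A-/- tumors lay inside the JAM-A+/+ range. Its difference was -0.01 (SE 0.21, interval -0.50 to 0.47), the only one of the 10 below 0, and its sign changed when tumor 5333, 5346 or 5370 was left out and under 2 other scalings. The interval allows a Zeb2 difference of up to 0.50 in size, so equal levels are not shown.

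**Figure D2:**
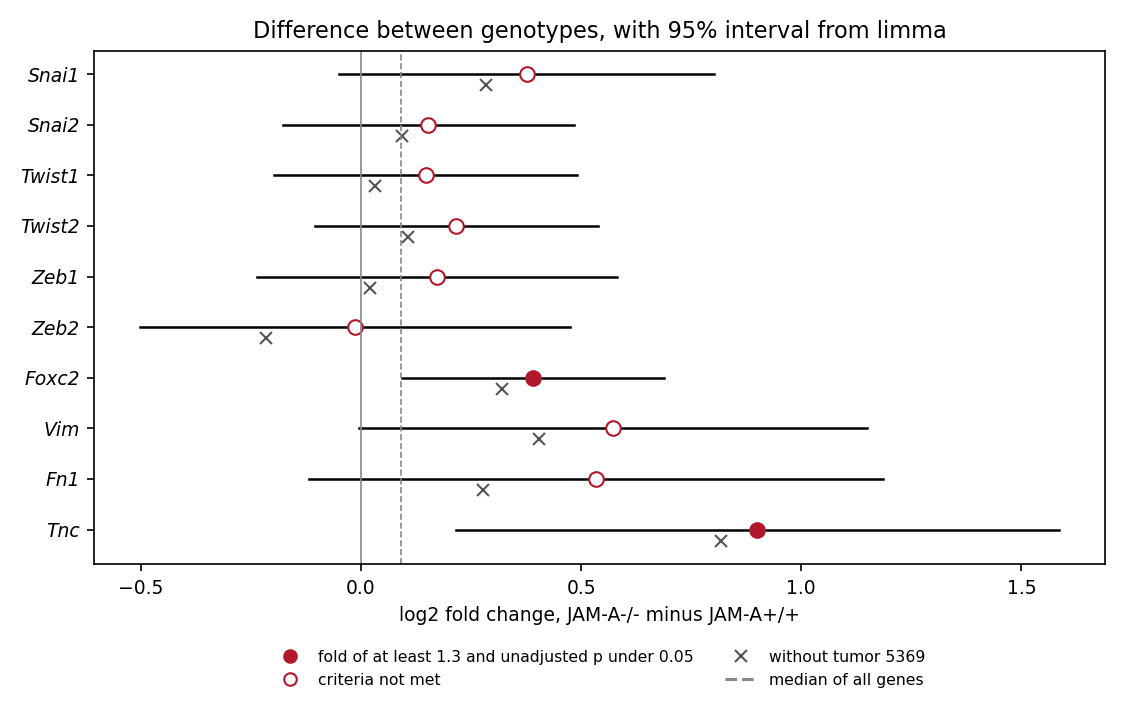
Log2 fold changes of the 10 transition genes, JAM-A-/- minus JAM-A+/+, as circles with 95% intervals from limma (3 tumors a group), filled where the criterion was met, with crosses for the values without tumor 5369 and a dashed line at the median of all genes, 0.09. The intervals of Foxc2 and Tnc lie above 0, that of Vim touches it, and those of the other 7 span it.

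Within each pair of related genes the change was set against that of the partner, tumor by tumor, in 3 pairs. Snai1 changed by 0.22 more than Snai2 (SE 0.199), with an exact permutation p of 0.4 and an adjusted p of 0.6 over the pairs. Twist2 changed by 0.07 more than Twist1 (SE 0.12, exact permutation p = 0.7). Zeb1 changed by 0.19 more than Zeb2 (SE 0.075), with the smallest exact p that the design allows, 0.1, and an adjusted p of 0.3 over the 3 pairs. For Zeb1 against Zeb2 the JAM-A-/- tumors all lay above the JAM-A+/+ tumors, and for the other pairs they did not. With 3 tumors a group none of these tests could pass, so they do not show that the partners changed alike.

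The spread of the 10 genes ran with single tumors. Tumor 5369 of the JAM-A+/+ group had the lowest value of all 6 tumors for 9 of the 10 genes, where it was the lowest for 36.2% of all genes. The exception was Tnc, lowest in tumor 5393. Among the JAM-A+/+ tumors 5370 was the highest for 6 of the genes and 5393 for 4. Tumor 5346 was the highest of all tumors for 5 genes, 5347 for 3, 5333 for 1 (Twist2) and 5370 for 1 (Zeb2). Averaged over the 7 transcription factors, the deviation from the mean of the 6 tumors was 0.06, 0.15 and 0.10 in tumors 5333, 5346 and 5347, against -0.33, 0.06 and -0.04 in tumors 5369, 5370 and 5393. Over the 3 products it was 0.07, 0.60 and 0.33 in JAM-A-/- tumors and -0.67, 0.19 and -0.52 in JAM-A+/+ tumors. For the transcription factors tumor 5370 thus stood at the level of tumor 5333, and tumor 5369 alone stood low.

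Without tumor 5369 none of the 10 genes met the criterion. Tnc then had a difference of 0.82 and Foxc2 of 0.32, with unadjusted limma p of 0.0539 and 0.0563, and Vim had 0.40, Fn1 0.28 and Snai1 0.28. None met it without tumor 5346 either, with 0.72 for Tnc and 0.32 for Foxc2. Without tumor 5370, in contrast, 5 met it (Snai1, Foxc2, Vim, Fn1 and Tnc), with Fn1 at 0.82. Without tumor 5393 Foxc2 alone met it, and without tumor 5333 Vim joined Foxc2 and Tnc. The count thus ran from 0 to 5 with the tumor left out, and the median of the 10 genes from 0.19 to 0.36. The share of all genes that met the criterion with higher values moved as well, from 4.73% with all tumors. It was 2.52% without tumor 5369, 4.05% without 5346, 4.76% without 5370, 6.52% without 5393, 10.1% without 5333 and 3.17% without 5347.

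**Figure D3:**
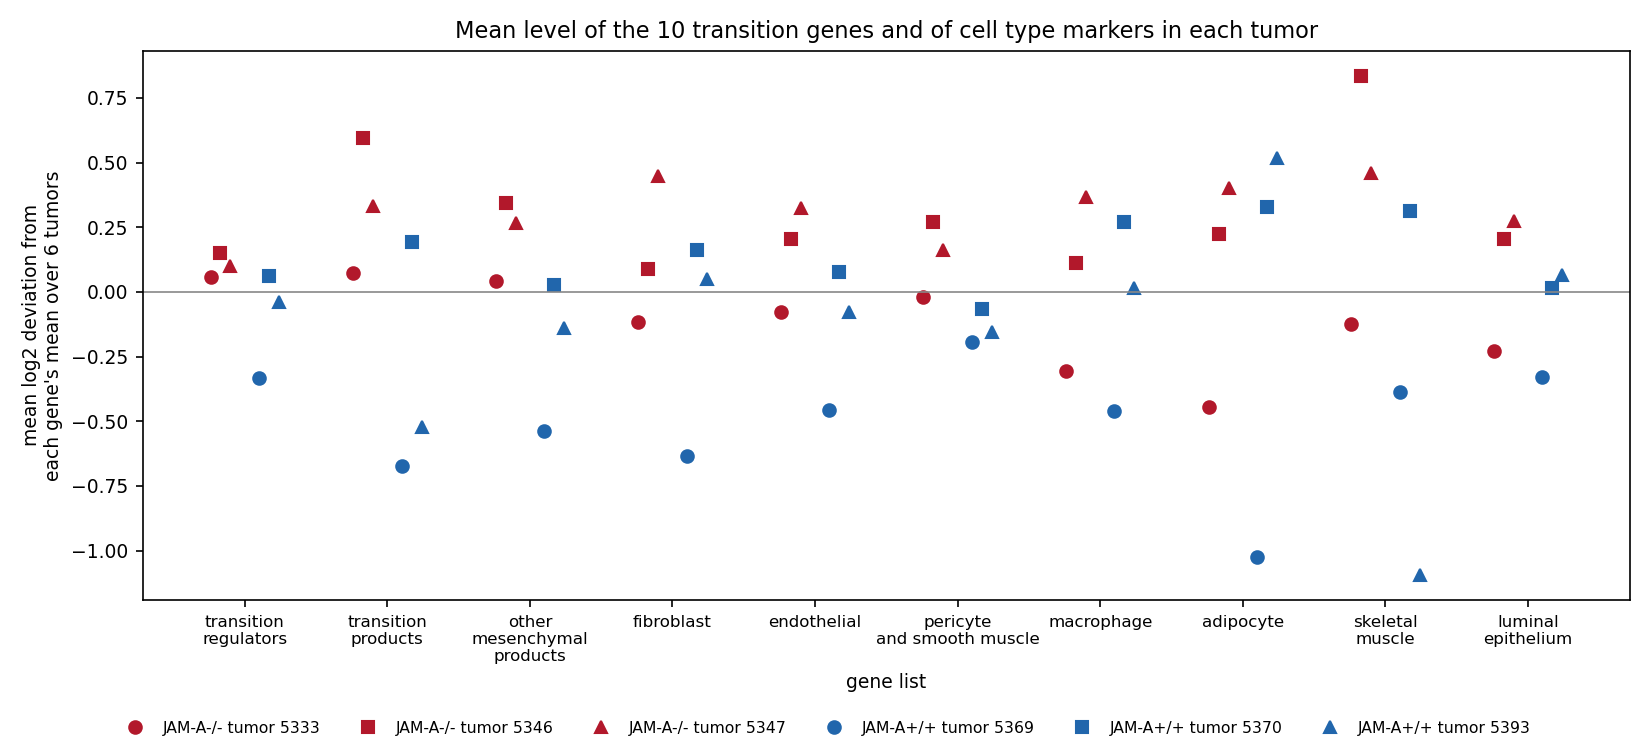
Mean deviation of each gene list from its mean over the 6 tumors, in log2 units, with 1 point per tumor and JAM-A-/- tumors left of JAM-A+/+ tumors. Tumor 5369 lies lowest for every list shown, luminal epithelium included, except the skeletal muscle markers, for which tumor 5393 lies lowest.

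The list of other mesenchymal products held 24 genes, of which 22 were measured. Of the 22 genes, 7 met the criterion with higher values in JAM-A-/- tumors and none with lower values, where 4.73% and 0.592% of all genes did. The median difference was 0.44, against 0.09 over all genes. Tumor 5369 was the lowest for 16 of the 22, and without it the median was 0.28 and 6 genes met the criterion. Acta2, smooth muscle actin, had 9.61, 9.93 and 9.61 in JAM-A-/- tumors and 8.66, 8.84 and 8.96 in JAM-A+/+ tumors. Its groups lay clearly apart, by 0.90 (SE 0.14, limma adjusted p = 0.208). Thbs2, the matrix glycoprotein thrombospondin 2, had 9.68, 9.99 and 9.49 in JAM-A-/- tumors and 8.85, 9.19 and 8.70 in JAM-A+/+ tumors, again without overlap, and differed by 0.81 (SE 0.18). Ccn1 and Ccn2 encode secreted matricellular proteins that transforming growth factor beta and YAP induce. Ccn1 differed by 0.61 (SE 0.14) and Ccn2 by 0.79 (SE 0.22). Cdh11, a mesenchymal cadherin, Tagln, an actin-binding protein of smooth muscle, and Lox, the collagen cross-linking enzyme, met the criterion as well, at 0.61, 0.60 and 0.52, and are named after their values were seen. Lox lost it on leaving out any tumor but 5370 and was 0.29 without tumor 5369. Tagln lost it without tumor 5346, 5369 or 5393 and was 0.38 without 5346, and Cdh11 lost it without 5333, 5347, 5369 or 5393 and ran from 0.41 to 0.82. Acta2, Thbs2, Ccn1 and Ccn2 met the criterion under every alternative tried, including with each tumor left out, which neither Tnc nor Foxc2 did.

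Among 14 measured transcription factors tied to the transition other than the 7 above, Foxc1 alone met the criterion and the median difference was 0.11. Of all genes 4.73% met the criterion with higher values in JAM-A-/- tumors. Foxc1, the forkhead relative of Foxc2, had 9.28, 9.07 and 9.51 in JAM-A-/- tumors and 8.26, 8.94 and 8.99 in JAM-A+/+ tumors, a difference of 0.56 (SE 0.22, limma adjusted p = 0.434). It no longer met the criterion without tumor 5333, 5347 or 5369, with differences of 0.32 to 0.69 over the tumors left out. Of the 4 Id genes, whose proteins block helix-loop-helix factors from binding DNA, Id1 met it. Id1 was measured at 7.36, 7.18 and 7.12 in JAM-A-/- tumors and at 6.67, 6.84 and 6.62 in JAM-A+/+ tumors. The groups did not overlap, and the difference of 0.51 (SE 0.12, limma adjusted p = 0.28) met the criterion under every alternative except a fold minimum of 1.5.

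Transforming growth factor beta is the best studied inducer of the transition. Of 26 measured ligands, receptors, Smads and targets, 2 met the criterion with higher values in JAM-A-/- tumors, and the median difference was 0.10. The matching share across the 19938 genes was 4.73%, and their median was 0.09, close to that of this list. Eng, the co-receptor endoglin of endothelial cells, had 8.01, 8.46 and 8.33 in JAM-A-/- tumors and 7.19, 7.92 and 7.45 in JAM-A+/+ tumors, a difference of 0.75 (SE 0.21). Tgfbi, a matrix protein that the pathway induces, differed by 0.51 (SE 0.20), and lost the criterion without tumor 5346, 5347 or 5369. Tgfb1, the ligand most often tied to the transition, had a difference of 0.37 (SE 0.19, limma adjusted p = 0.507). It is named although it missed the criterion. The ligands Tgfb2 and Tgfb3, also named after their values were seen, had differences of -0.12 and -0.10. The receptors Tgfbr1 and Tgfbr2 had 0.01 and 0.04.

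Fibronectin and the tenascins are bound by integrins and syndecans. Over 17 such receptors and matrix relatives the median difference was 0.11, and Fbln2, the matrix protein fibulin 2, alone met the criterion. Of all genes 4.73% met the criterion with higher values in JAM-A-/- tumors. Fbln2 had 9.37, 9.51 and 9.64 in JAM-A-/- tumors and 8.93, 9.12 and 8.84 in JAM-A+/+ tumors, without overlap (0.54, SE 0.13). The fibronectin receptor subunits Itga5 and Itgb1, named after their values were seen, had differences of 0.11 and 0.20 with overlapping groups.

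On the epithelial side, 30 genes that the repressors are known or thought to act on were listed, and 29 were measured. Cdh3, P-cadherin, met the criterion and had higher values in JAM-A-/- tumors (0.49, SE 0.17), and none met it with lower values. Of all genes 4.73% met it with higher values and 0.592% with lower values. The criterion was lost for Cdh3 without tumor 5333, 5346 or 5369. The median difference was 0.16, and it was -0.01 and -0.03 under the 2 quantile scalings, so its sign followed the scaling. E-cadherin, encoded by Cdh1, was measured at 11.12, 11.47 and 11.64 in JAM-A-/- tumors and at 11.03, 11.33 and 11.43 in JAM-A+/+ tumors. Its groups overlapped (0.15, SE 0.17, limma adjusted p = 0.774), and its sign turned under both quantile scalings. Cdh1, Crb3 and Ocln were named after their values were seen. Ocln, the tight junction protein occludin, had a difference of -0.12 (SE 0.20).

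Crb3 encodes an apical polarity protein whose promoter holds the motif that the repressors bind, and it is shown as a gene rich in the motif whose values overlapped between genotypes. Crb3 had 7.70, 7.78 and 7.83 in JAM-A-/- tumors and 7.78, 7.71 and 7.83 in JAM-A+/+ tumors, a difference of -0.0033 (SE 0.11, limma adjusted p = 0.993). The 250 bases before a start site of Crb3 are from RefSeq in build GRCm38.p6, at chr17:57061951-57062200 on the plus strand. Those of Snai1 lie at chr2:167537945-167538194 on the plus strand. Both are given 5′ to 3′ with each E-box in capitals (CAGGTG, or CACCTG as it reads on the opposite strand).
Crb3: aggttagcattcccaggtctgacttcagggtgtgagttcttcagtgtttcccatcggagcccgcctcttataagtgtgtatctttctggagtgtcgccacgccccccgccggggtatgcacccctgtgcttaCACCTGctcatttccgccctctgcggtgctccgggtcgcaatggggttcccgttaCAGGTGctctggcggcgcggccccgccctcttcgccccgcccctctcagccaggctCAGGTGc
Snai1: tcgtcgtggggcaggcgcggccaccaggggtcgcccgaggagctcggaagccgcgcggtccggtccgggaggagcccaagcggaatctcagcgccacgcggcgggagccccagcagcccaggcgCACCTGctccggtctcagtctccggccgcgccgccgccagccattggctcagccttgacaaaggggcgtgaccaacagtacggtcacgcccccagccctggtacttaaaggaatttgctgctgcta
Crb3 had 2 such windows, of which the first is shown. That window held 3 matches, 118, 63 and 7 bases before the start, and the Snai1 window held 1, 126 bases before it. Of 19 epithelial genes with a window in the table, 14 held the motif (73.7%), against 1 of 6 transition genes (16.7%) and 19.4% of all 27025 genes. The epithelial genes were listed as ones that the repressors are known or thought to act on, so their high share is no independent result. A match is a description of the letters and shows no binding.

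The epithelial guardians, factors that hold cells epithelial, numbered 13 and had a median difference of 0.18. Grhl3, a grainyhead factor of epithelial barriers, alone met the criterion with lower values in JAM-A-/- tumors, as 0.592% of all genes did. Its values were 5.79, 6.15 and 5.89 in JAM-A-/- tumors and 6.34, 6.42 and 6.79 in JAM-A+/+ tumors. The groups lay apart, by -0.57 (SE 0.16, limma adjusted p = 0.334), and the criterion was met under every alternative except a fold minimum of 1.5.

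**Figure D4:**
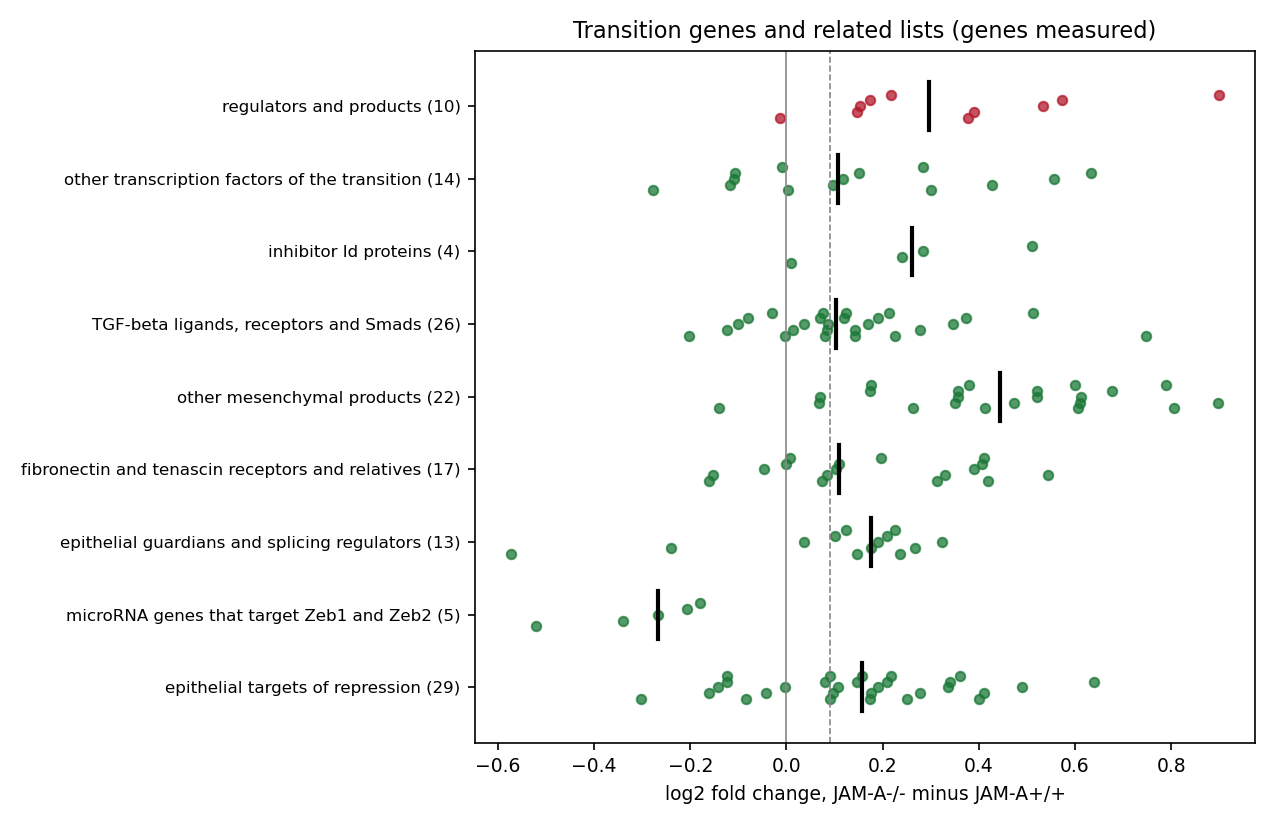
Log2 fold change of each gene, JAM-A-/- minus JAM-A+/+, by list, with 1 point per gene, a black bar at the median of each list and a dashed line at the median of all genes, 0.09. The other mesenchymal products lie furthest above 0 as a list among the pathway lists, and the 5 microRNA genes all lie below it.

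The microRNAs of the miR-200 family bind the transcripts of Zeb1 and Zeb2 through the seed at bases 2 to 8, and they fall into 2 groups by that seed. Their mature sequences, from RefSeq in build GRCm38.p6, are shown 5′ to 3′ with the seed in capitals, since 1 base inside it sets the groups apart.
miR-200b-3p (chr4:156055685-156055706, minus strand): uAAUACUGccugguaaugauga
miR-200c-3p (chr6:124718324-124718346, minus strand): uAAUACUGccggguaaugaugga
miR-200a-3p (chr4:156054911-156054932, minus strand): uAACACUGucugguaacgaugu
miR-141-3p (chr6:124717917-124717938, minus strand): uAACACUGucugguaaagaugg
The probe sets lie in the genes of these microRNAs, so their values are not those of the mature forms. Mir200b was measured at 6.94, 6.28 and 7.0 in JAM-A-/- tumors and at 7.26, 7.11 and 7.41 in JAM-A+/+ tumors. It met the criterion with lower values in JAM-A-/- tumors (-0.52, SE 0.21, limma adjusted p = 0.435) and no overlap between groups, as 2.55% of all genes in that direction, and lost it without tumor 5346, 5369 or 5393. Of all 291 microRNA genes 6.87% met it with lower values, and 36 had all JAM-A-/- tumors below all JAM-A+/+ tumors. Mir200a, from the same locus, had 7.26, 7.12 and 7.44 in JAM-A-/- tumors and 7.70, 7.32 and 7.60 in JAM-A+/+ tumors (-0.27, SE 0.15). The pair on chromosome 6, Mir200c and Mir141, had differences of -0.18 and -0.34, which were 0.13 and 0.01 without tumor 5393, and Mir205 had -0.21. All 5 lay below 0, as did 167 of the 291 microRNA genes, and beyond Mir200b they are named after their values were seen. Mir141 and Mir205 fell among the dimmest 40% of probe sets, with means over the 6 arrays under 5.66. Differences between the seed groups were not tested.

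**Figure D5:**
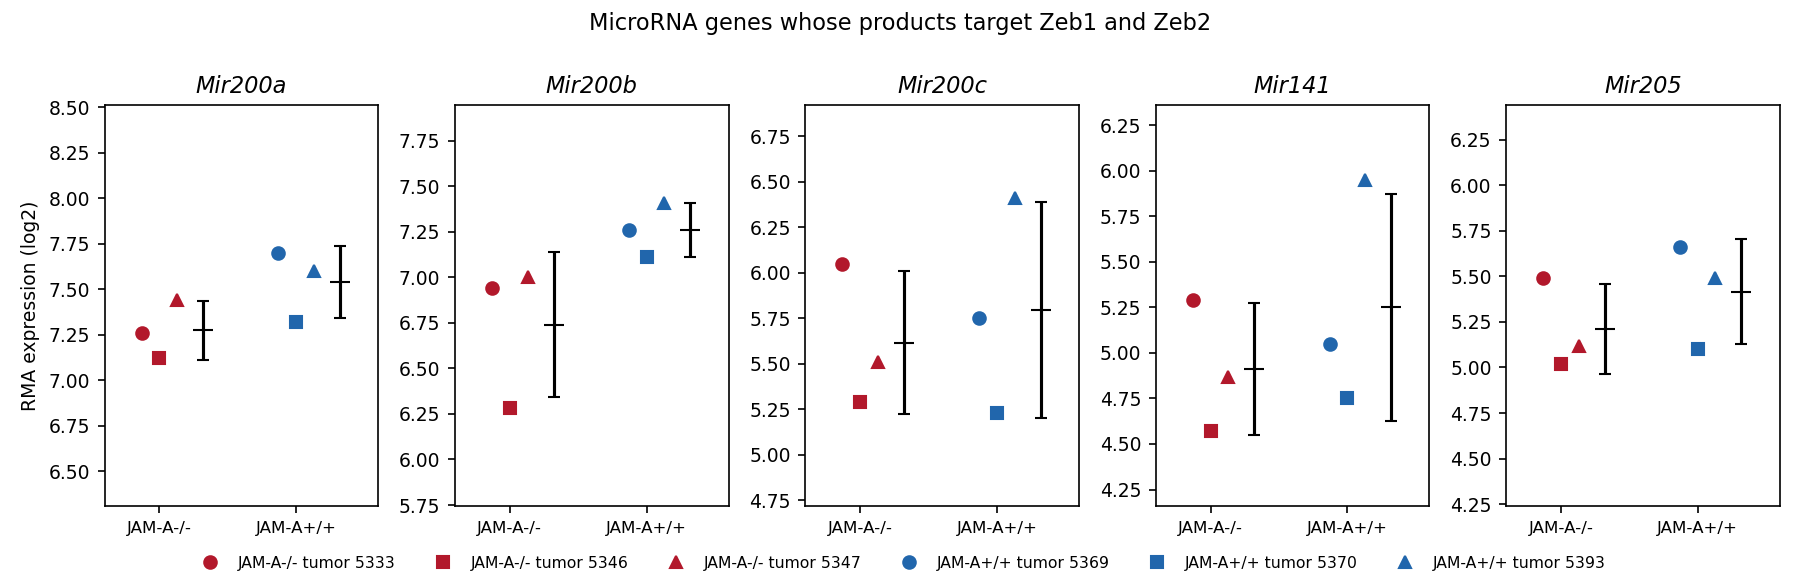
Log2 expression of the 5 microRNA genes of the miR-200 family and Mir205 in each tumor, JAM-A-/- left of JAM-A+/+, with bars for the group mean ± SD (n = 3 each). Mir200b is the only one whose groups do not overlap.

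Markers of stromal and other cell types were set beside the transition genes. The share of all genes that met the criterion with higher values, 4.73%, is the reference for each marker count below. Of 14 fibroblast markers 3 met the criterion with higher values in JAM-A-/- tumors (Pdgfra 0.45, Col1a2 0.58 and Col6a3 0.63), and the median difference was 0.32. Their mean level ran from 8.92 to 9.48 in JAM-A-/- tumors and from 8.40 to 9.20 in JAM-A+/+ tumors. Tumor 5369 was the lowest for 13 of the 14, and without it the median was 0.06 and no fibroblast marker met the criterion, as without tumor 5346 or 5347. Of 10 markers of pericytes and smooth muscle, Des (0.86) and Abcc9 (0.59) met it, with mean levels of 7.10 to 7.39 in JAM-A-/- tumors and 6.93 to 7.05 in JAM-A+/+ tumors. Des and Abcc9 kept it under every alternative. Of 8 basal and myoepithelial markers, Acta2, which is also on the list of mesenchymal products, and Cnn1 (0.44, and 0.27 without tumor 5346) met it, with mean levels of 7.82 to 8.08 in JAM-A-/- tumors and 7.60 to 7.84 in JAM-A+/+ tumors. Cnn1 lost it without tumor 5346, 5369, 5370 or 5393, and its mean over the 6 arrays lay under the dim level of 5.66.

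Of 10 endothelial markers, Pecam1 met it (0.60), with mean levels of 7.0 to 7.41 in JAM-A-/- tumors and 6.62 to 7.16 in JAM-A+/+ tumors, and tumor 5369 was the lowest for 9 of the 10. Pecam1 was 0.37 without tumor 5369, and lost the criterion without 5346, 5347, 5369 or 5393. Of 8 skeletal muscle markers, Acta1 (1.31) and Myh1 (1.29) met it, with mean levels of 7.02 to 7.99 in JAM-A-/- tumors and 6.06 to 7.46 in JAM-A+/+ tumors. Both lost it without tumor 5346 or 5393, and Acta1 without 5347 or 5369 as well, with 0.74 for Acta1 and 0.78 for Myh1 without 5393. Of 4 Schwann cell markers, S100b met it (0.97), with mean levels of 7.65 to 8.57 in JAM-A-/- tumors and 7.83 to 7.91 in JAM-A+/+ tumors. S100b kept it only without tumor 5333, and was 0.59 without tumor 5346 and 1.43 without 5333. No marker of macrophages, adipocytes or luminal epithelium met it. Those of smallest p were Itgam (0.26) and C1qa (0.26) for macrophages and Pnpla2 (0.32) and Lep (0.16) for adipocytes. For luminal epithelium they were Krt18 (0.34) and Krt19 (0.41). The macrophage mean ran from 8.67 to 9.34 in JAM-A-/- tumors and from 8.52 to 9.24 in JAM-A+/+ tumors, and the adipocyte mean from 6.67 to 7.52 in JAM-A-/- tumors and from 6.09 to 7.63 in JAM-A+/+ tumors. The median difference was 0.63 over the skeletal muscle, 0.33 over the endothelial and 0.32 over the Schwann cell markers. It was 0.20 over the pericyte and smooth muscle, 0.19 over the adipocyte and 0.165 over the luminal markers. Over the macrophage and the basal and myoepithelial markers it was 0.13 and 0.075. Arrays give no level of 0 for any marker. Tumor 5369 was the lowest for 8 of the 9 macrophage, 8 of the 8 adipocyte and 6 of the 8 luminal markers. The part that any of these cell types had in the values of the transition genes was not tested.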

How the data were processed

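RNA of 3 JAM-A-/- and 3 JAM-A+/+ tumors, grouped by title and genotype, was measured on 1 array each. The values deposited by the authors are log2 expression values, for which the submitters' processing notes name Affymetrix Expression Console 1.1 and RMA. RMA values are relative, so total RNA cannot be compared. The deposited arrays do not share 1 distribution, with medians of 6.23 to 6.34 and interquartile ranges of 3.27 to 3.74. Of its settings, nothing is stated (not given in the sources used here). The number of arrays sets the precision.

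The linear model and empirical Bayes test of limma 3.58.1 in R 4.3.3 was fitted to all 35557 probe sets, with no covariate and Benjamini-Hochberg adjustment. The script was tested on simulated data. The criterion was a 1.3-fold change or more with p under 0.05 before adjustment. It was read from the study's supplementary list, whose entries all meet it, since the array test is not described. The study may have used further rules. Here 2952 probe sets met the criterion, more than that list holds, so meeting it does not mean membership of the published signature. A gene was represented by its probe set of 1 symbol with the highest mean; 21789 probe sets have 1 symbol. Named were the 10 genes, F11r and, of each other list, up to 4 genes that met the criterion by smallest p, or otherwise the 2 of smallest p; names beyond this were chosen after their values were seen. The genes and lists were chosen with earlier results of these data known. Littermates served as controls, but no litter, batch or scan date is assigned to arrays. Alternatives were equal-variance and Welch tests, an intensity trend, array weights, 3 scalings, a filter on dim probe sets, the mean of a gene's probe sets, a fold minimum of 1.5 and leaving out each tumor.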

Additional observations from a re-analysis of the deposited data

How the results depend on the processing

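The number of the 10 genes that met the criterion, 2 as reported, was 1 with the equal-variance test and 1 with the Welch test (Foxc2 in both). It was 4 with array weights and 4 with median centring (Snai1, Foxc2, Vim and Tnc in both). It was 1 with quantile normalization over listed probe sets (Tnc) and 1 at a fold change of at least 1.5 (Tnc). Without the dimmest 40% of probe sets it stayed at 2, but these were Vim and Tnc, since Foxc2 was not tested. Of all genes, 4.73% met the criterion with higher values in JAM-A-/- tumors as reported. That share was 2.46% with the equal-variance test, 1.73% with the Welch test and 6.57% with array weights. It was 1.8% with quantile normalization over listed probe sets, 8.13% with median centring and 2.52% to 10.1% over the tumors left out. Leaving out each tumor in turn gave 0 to 5 of the 10 genes, and a median difference of 0.19 to 0.36. The median was 0.23 with quantile normalization over listed probe sets and 0.35 with median centring. Zeb2 turned to 0.0306 with quantile normalization over all probe sets and to 0.0433 with median centring, and it ran from -0.22 to 0.20 over the tumors left out. Of the genes that met the criterion across all genes, 88.9% had higher values in JAM-A-/- tumors as reported, 76.6% with quantile normalization over all probe sets, 54.2% with that over listed probe sets and 96.1% with median centring. The median difference of all genes, 0.09, was 0.00 after quantile normalization over listed probe sets. Of 25 other genes that met the criterion and are named, 8 met it under all alternatives other than the fold minimum of 1.5, and 6 of these at that minimum as well. Cdh1 turned to -0.0456 and -0.0481 under quantile normalization over all and over listed probe sets, and Crb3 to 0.0153 with array weights and 0.0533 with median centring. The sign also turned over the tumors left out for Crb3 (-0.035 to 0.0317), Ocln (-0.3417 to 0.0433), Itga5 (-0.0133 to 0.2583), Mir200c (-0.4633 to 0.1267) and Mir141 (-0.59 to 0.01). No paired analysis was possible because the groups share no replicate number. The causes of these changes were not tested.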
